A study of Danio rerio with 6 samples.

Results

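The olfactory rosette is the paired nasal organ that carries the olfactory epithelium. The zebrafish Notch, proneural and Sox genes examined in it mostly belong to families known for regulating neural cell fate, though not every member does so. They were chosen by gene symbol, with earlier results of these data known. The set covers her, hes and hey repressors, notch receptors, dla to dld, jag ligands, the neurod, neurog, atoh and other proneural factors, sox genes, and the insm, elavl and id families. The symbols pointed to 57 of the 5352 named genes on the array, read by 64 probes, of which 1 was annotated to both her7 and her1. Of these, 62 probes for 55 genes could be tested.

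Notch receptors bind Delta and Jagged ligands on neighbouring cells and, once cut, switch on many of the her and hey genes. The proteins of those genes repress the proneural factors, so a cell that receives the signal stays a progenitor while its neighbour goes on to become a neuron. Id proteins lack a DNA-binding region and tie up the partners of proneural factors. SoxB1 proteins keep neural cells as progenitors, and SoxC proteins act as neurons mature. The olfactory epithelium renews its sensory neurons from basal progenitors throughout life, and in mouse Neurog1 and Neurod1 act one after the other along that path.

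RNA came from the rosettes of untreated adults aged 1 to 2 years, of mixed sex, with 3 samples from wild-type siblings of Rag1 mutants and 3 from Rag1 homozygous mutants, and each sample was hybridised to its own array in 1 colour. The mutation is carried in every cell of the fish, and the rag1 product, with that of rag2, cuts and joins the gene segments of antigen receptors in lymphocytes. The comparison asks how the organ differs in fish without that recombinase. The labels do not say how many fish gave a sample or whether samples came from separate animals, so a p-value here reflects the spread among these 6 samples alone, and part of it may be technical. For mutant array 2 a source field reads wild type, whereas its title and strain give the mutant. It was kept with the mutants, and the main results are also given without it.

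The median gene probe was 4.75 to 7.21 times as bright as the median blank spot of its array, and 96.3% to 99.5% of probes exceeded the 95th percentile of the blank spots, the bar used for "above the blanks" here. Correlations across probes were 0.963 to 0.973 between arrays of different groups and 0.981 to 0.988 within a group. The rag1 probe lay near the blank spots in wild type (6.48 to 6.71) and checked no label. Its reading of 11.92 on mutant array 3 came from a spot whose pixel SD was 3.18 times its mean. All levels below are log2 of normalised brightness, and differences are mutant minus wild type with 3 arrays per group. A level is meaningful against the blank spots and between arrays, but not between probes.

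In the adult rosette most of these genes gave a readable signal. Tested probes had to clear the blanks on all 3 arrays of a group. Of the 62 tested probes, 58 cleared the blanks on all 6 arrays, as did 15160 of all 15611 tested probes, a larger share. The lowest reading counted as above the blanks was 6.10 to 6.29, depending on the array, and 17 of the 62 probes had a wild-type mean less than 1 log2 unit over that floor. So did 2623 of all 15611 probes, a smaller share. Whether a probe was above the blanks was judged on the raw intensity, while the floor is the lowest normalised reading of any probe that was, so a probe can read over the floor and still not be above the blanks. The 17 faint member probes were 5 of 14 for her and hey repressors, 3 of 7 for Notch receptors, 5 of 11 for proneural factors and 4 of 14 for sox genes. None of the 6 ligand probes, the 7 insm and elavl probes or the 3 id probes was that faint.

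The gene neurog3, an endocrine factor of pancreas and gut in mammals, was not above the blank spots on any array. It read 6.24, 6.06 and 6.09 in wild type and 5.98, 6.11 and 6.21 in the mutants, and was not tested. The SoxC gene sox11a read 5.98 and 6.01 on wild-type arrays 1 and 3 and 6.18, 5.96 and 6.06 on the mutant arrays, not above the blank spots on any of the 5 arrays where it could be read. Its spot lies in a print block that was misread on wild-type array 2, so it too was not tested.

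**Figure D1:**
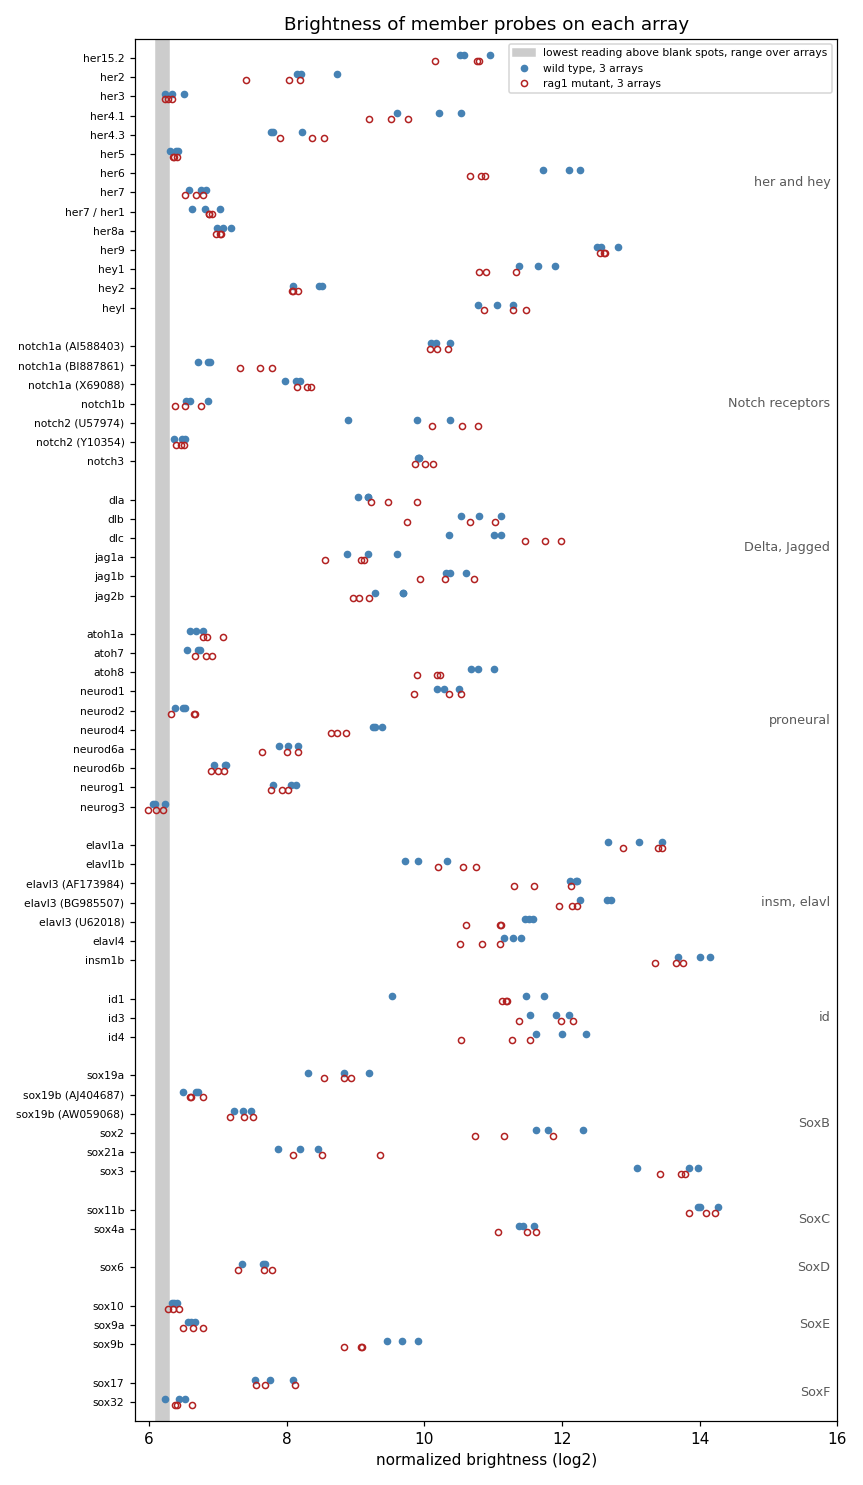
Normalised brightness (log2, horizontal axis) of the member probes described on each array, with filled points for the 3 wild-type arrays and open points for the 3 mutant arrays, grouped by role. The grey band spans 6.10 to 6.29, the lowest reading above the blank spots over the 6 arrays. The her6 points of the groups lie well apart, while the sox3, sox11b and her9 points mix.

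Of the 62 probes, 4 passed limma's test at an adjusted p of 0.05 (6.45%), where 4.79% of all 15611 probes did. The repressor her6 fell in the mutants, as did atoh8 and neurod4 of the proneural families, and 1 of 3 probes of notch1a rose. That is 4.84% lower against 2.36% of all probes, and 1.61% higher against 2.43%. At an unadjusted p of 0.05 the count was 16 probes (25.8%) against 21.0% of all probes, with 12 of them lower. The 3 mutant arrays were all below the 3 wild-type arrays for 10 probes (16.1%, against 12.8% of all probes) and all above them for 5 (8.06%, against 13.0%). Each share differs from that of the whole array by only a few probes.

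The size of the differences was likewise close to that of the array. The median was -0.03 over the 62 probes and 0.01 over all probes. Below 0 were 39 of the 62 member probes, a larger share than the 7589 of all 15611 probes. With probes of a gene averaged, 35 of 55 genes were below 0. A difference within 0.25 of 0 was found for 36 member probes (58.1%) and for 61.2% of all probes. A difference past 2-fold was found for her6 alone among the members and for 3.33% of all probes. The median SD between arrays of a group was 0.17 in wild type and 0.20 in the mutants for the members, against 0.18 and 0.19 for all probes. This spread does not by itself show how well faint probes were measured. Without mutant array 2, her6 and the notch1a probe were the 2 members that passed.

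**Figure D2:**
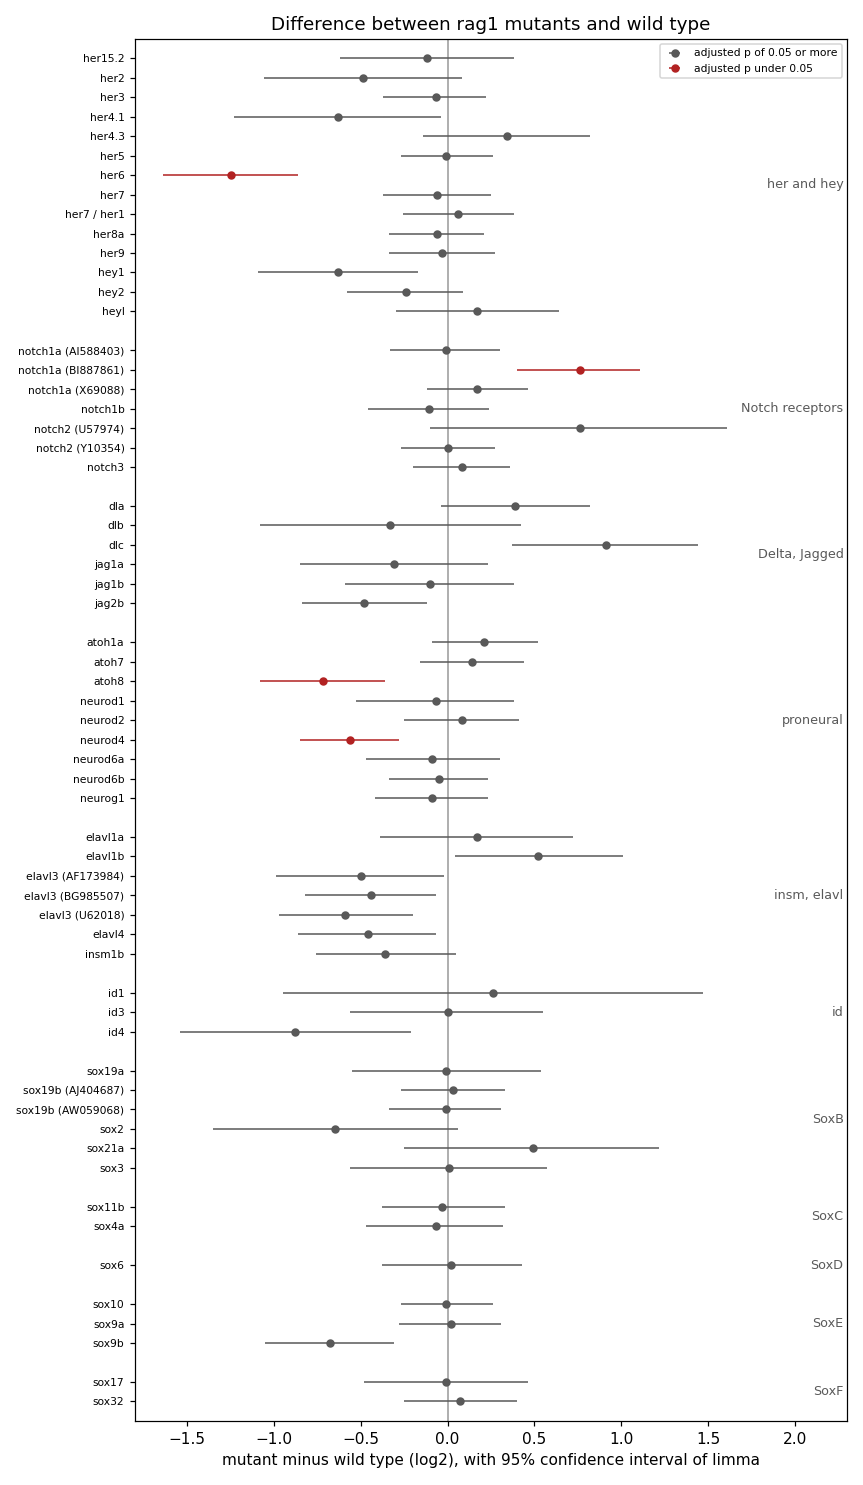
Difference between mutants and wild type (log2, horizontal axis) for the tested probes described, each with limma's 95% confidence interval, grouped by role. Red marks the 4 probes with an adjusted p under 0.05. The interval of her6 runs from -1.64 to -0.86, and the intervals of all sox probes but sox9b hold 0.

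Among the her and hey repressors, not all of which are targets of the cut Notch receptor, her6 fell. It is the zebrafish relative of mammalian Hes1. The her6 probe read 12.27, 12.11 and 11.72 in wild type (arrays 1 to 3, the order used throughout) and 10.82, 10.88 and 10.66 in the mutants. The lowest wild-type array was well above the highest mutant array. The difference was -1.25 (SE 0.17, 95% interval -1.64 to -0.86), a 2.37-fold lower brightness, with limma's adjusted p = 0.0101. It passed under all 9 other ways of processing tried and with any 1 array left out, where the difference lay between -1.40 and -1.13. Without mutant array 2 it was -1.29 (adjusted p = 0.0311). Since whole organs were measured, fewer cells of a type and less RNA per cell cannot be told apart, here and below.

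The hairy-related gene hey1 showed separate groups but did not pass the test. It read 11.37, 11.90 and 11.66 in wild type and 10.90, 11.33 and 10.80 in the mutants. The highest mutant array came close to the lowest wild-type array. The difference was -0.63 (SE 0.20, adjusted p = 0.118).

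The other repressors did not pass either. her4.1, a relative of mammalian Hes5, had group means of 10.12 and 9.49 and a difference of -0.63 (SE 0.26, adjusted p = 0.211) with overlapping groups. her4.3, from the same family of closely related copies that a probe may not tell apart, had a difference of 0.34 (SE 0.21, adjusted p = 0.416). her2 differed by -0.49 (SE 0.24, adjusted p = 0.315) and hey2, known from zebrafish for its part in forming the aorta, by -0.24. heyl differed by 0.17 and her15.2 by -0.12.

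her9, another relative of the mammalian Hes1 family, had group means of 12.64 and 12.60 and a difference of -0.03 with an interval of -0.34 to 0.27, which leaves out a fall of the size seen at her6. Of the 14 repressor probes, 11 were below 0 and 3 above, with a median of -0.07. The segmentation-clock gene her7 differed by -0.06, the probe shared by her7 and her1 by 0.06 and her8a by -0.06, all from probes less than 1 log2 unit over the floor.

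Both her3 and her5 were at the level of the blank spots. The her3 probe read 6.51, 6.33 and 6.23 in wild type and 6.24, 6.28 and 6.33 in the mutants, and was above the blanks on 2 of the 3 mutant arrays. The her5 probe read 6.31, 6.43 and 6.40 against 6.36, 6.41 and 6.35, above the blanks on 2 of the 3 wild-type arrays. Neither passed, and a change at these genes could be hidden by the nearness of the blanks.

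The receptors were read by 7 probes, of which 5 were above 0 and 2 below. The notch1a probe BI887861 rose. It read 6.86, 6.89 and 6.72 in wild type and 7.62, 7.33 and 7.79 in the mutants. No mutant array reached down to the wild-type arrays, but the wild-type mean was only 0.64 log2 units over the floor. The difference was 0.76 (SE 0.15, 95% interval 0.40 to 1.11), a 1.69-fold higher brightness, with limma's adjusted p = 0.0371. It passed under 7 of the 9 other ways of processing, and not without background correction (0.48, adjusted p = 0.0674) or in the authors' deposited table (0.60, adjusted p = 0.0864), and with an offset of 16 it was 0.99. With 1 array left out it passed only without mutant array 2 (0.88, adjusted p = 0.0358), and the adjusted p was 0.0691 to 0.117 without any other array.

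The other notch1a probes did not pass. Probe AI588403 read 10.38, 10.17 and 10.10 in wild type and 10.34, 10.19 and 10.08 in the mutants, with the groups almost on top of each other (-0.01, SE 0.14, adjusted p = 0.978). Probe X69088 read 7.98, 8.14 and 8.19 against 8.15, 8.30 and 8.36, with overlapping groups (0.17, SE 0.13, adjusted p = 0.517). The gap between BI887861 and AI588403 on the same array moved from -3.52, -3.28 and -3.38 in wild type to -2.71, -2.86 and -2.29 in the mutants, a shift of 0.77, and the gap to X69088 shifted by 0.59. The 3 probes of notch1a thus gave differences of unequal size, and which stretch of the transcript each of them reads is not known here.

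Of the notch2 probes neither passed. Probe U57974 read 9.89, 10.38 and 8.89 in wild type and 10.78, 10.55 and 10.11 in the mutants, with overlapping groups. Its difference of 0.76 (SE 0.37, adjusted p = 0.296) rested partly on wild-type array 3, without which it was 0.34. Probe Y10354 read 6.52, 6.37 and 6.48 against 6.39, 6.51 and 6.46, near the blank spots throughout (0.00, SE 0.12, adjusted p = 0.998). notch1b was also faint and differed by -0.11. notch3 had means of 9.92 and 10.01 and an interval of -0.20 to 0.36.

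**Figure D3:**
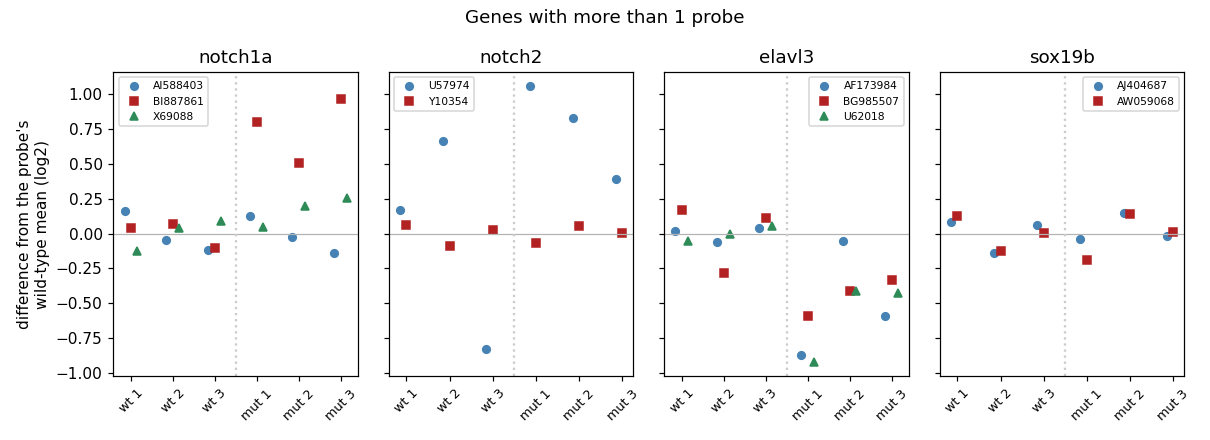
Brightness of each probe relative to its own wild-type mean (log2, vertical axis) on the 6 arrays, for the 4 member genes with more than 1 probe. Points of 1 colour and shape belong to 1 probe. The BI887861 probe of notch1a is 0.76 higher in the mutants, against 0.17 for X69088 and -0.01 for AI588403, whereas all 3 elavl3 probes lie below 0 on every mutant array.

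None of the 6 ligand probes passed the test. dlc, a Delta gene that zebrafish embryos need to form regular somites, read 11.02, 11.11 and 10.36 in wild type and 11.75, 11.47 and 11.99 in the mutants. The mutant arrays were all higher, with wild-type array 3 well below its group. The difference was 0.91 (SE 0.23, adjusted p = 0.0725). It passed under median scaling between arrays and in the authors' deposited table, 2 of the 9 other ways, and in none of the 6 fits with 1 array left out.

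jag2b, a Jagged ligand, lay on the other side. It read 9.69, 9.69 and 9.28 in wild type and 8.96, 9.05 and 9.20 in the mutants. The groups did not overlap, but wild-type array 3 and mutant array 3 nearly met (-0.48, SE 0.16, adjusted p = 0.13). The other Delta genes split, with dla at 0.39 (SE 0.18, adjusted p = 0.283) and all mutant arrays above wild type, and dlb at -0.33 (SE 0.32) with wide scatter in the mutants. jag1a differed by -0.31 and jag1b by -0.10. The 3 Delta probes had a median of 0.39 and the 3 Jagged probes one of -0.31, and no difference between these groups was tested.

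Proneural factors commit progenitors to a neuronal fate, but the group here was set by gene family and not every member acts at that step. The group gave 2 of the 4 called probes, from 11 tested, where 4.79% of all probes were called. atoh8 read 11.02, 10.68 and 10.78 in wild type and 10.23, 9.89 and 10.19 in the mutants. All mutant arrays were below all wild-type arrays. atoh8 fell by 0.72 on the log2 scale (SE 0.15, 95% interval -1.08 to -0.36), a 1.65-fold lower brightness, with limma's adjusted p = 0.0435. It passed under 8 of the 9 other ways of processing and in none of the 6 fits with 1 array left out, where the adjusted p was 0.0879 to 0.111 and the difference -0.80 to -0.61. Without mutant array 2 the difference was -0.61.

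neurod4 read 9.26, 9.29 and 9.39 in wild type and 8.73, 8.87 and 8.65 in the mutants. Each group was tight, with an SD of 0.069 in wild type and 0.109 in the mutants, and they did not overlap. neurod4 fell by 0.56 (SE 0.12, 95% interval -0.85 to -0.28), a 1.48-fold lower brightness, with limma's adjusted p = 0.0455. It passed under 5 of the 9 other ways and in none of the 6 fits with 1 array left out (adjusted p = 0.0665 to 0.133), which gave -0.62 to -0.51. Without mutant array 2 it was -0.62 (adjusted p = 0.0665).

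Neither neurog1 nor neurod1, both known from the olfactory lineage, passed. neurog1, needed for olfactory neurons in the zebrafish embryo, had means of 8.00 and 7.91. Its interval of -0.42 to 0.23 overlaps that of neurod4 (-0.85 to -0.28). neurod1 had means of 10.32 and 10.25 with a wider interval of -0.53 to 0.38.

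The hair cell factor atoh1a differed by 0.21 (adjusted p = 0.42), and the retinal ganglion cell factor atoh7 by 0.14. All mutant arrays of atoh1a were above wild type, but the groups nearly met (6.78 on wild-type array 3, 6.79 on mutant array 3). neurod2 differed by 0.08, neurod6a by -0.09 and neurod6b by -0.05. Of these, all but neurod6a came from probes less than 1 log2 unit over the floor. Of the 11 proneural probes tested, 7 were below 0 and 4 above, with a median of -0.07. An unadjusted p under 0.05 was found for 3 of them, 2 lower and 1 higher, and for 21.0% of all probes.

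**Figure D4:**
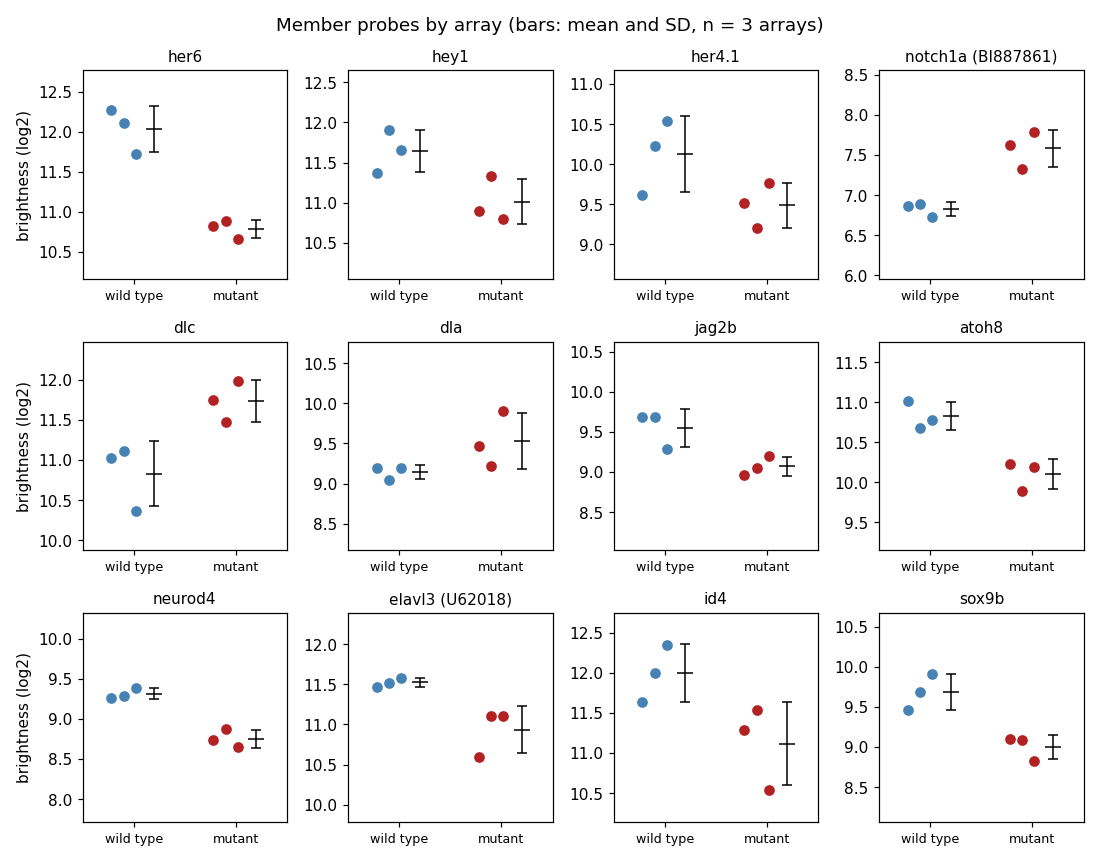
Brightness (log2, vertical axis, not starting at 0) of 12 member probes on the 3 wild-type and 3 mutant arrays, with points for arrays and bars for the group mean and SD. The groups of her6, notch1a (BI887861), atoh8 and neurod4, the 4 probes that passed the test, do not overlap. Neither do those of hey1, dlc, dla, jag2b, elavl3 (U62018), id4 and sox9b, which did not pass, while those of her4.1 overlap.

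The elavl genes encode RNA-binding proteins, of which Elavl3 and Elavl4 are found in neurons and mark their start of differentiation, and Elavl1 occurs in most cells. None of the 7 insm and elavl probes passed. An unadjusted p under 0.05 was found for 5 of them, and for 21.0% of all probes. Of the 5, 4 were lower, namely the 3 probes of elavl3 and that of elavl4. All 3 probes of elavl3 were below 0. Probe U62018 read 11.47, 11.52 and 11.58 in wild type and 10.60, 11.11 and 11.10 in the mutants, with no overlap (-0.59, SE 0.16, adjusted p = 0.093). Probe BG985507 read 12.72, 12.27 and 12.66 against 11.96, 12.14 and 12.22, also with no overlap (-0.44, SE 0.16, adjusted p = 0.166). Probe AF173984 read 12.20, 12.12 and 12.22 against 11.31, 12.13 and 11.59, where mutant array 2 lay within wild type (-0.50, SE 0.21, adjusted p = 0.222). The probes read 1 gene and are not independent of each other.

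elavl4 had means of 11.28 and 10.82 and all mutant arrays below wild type (-0.46, SE 0.17, adjusted p = 0.173). The zinc finger gene insm1b, which in the mouse olfactory epithelium marks progenitors about to become neurons, had means of 13.95 and 13.59 with overlap (-0.36, SE 0.17, adjusted p = 0.299). The widely expressed paralogs lay above 0, elavl1b at 0.52 (SE 0.21, adjusted p = 0.203) and elavl1a at 0.17 (SE 0.24). The median of the 7 probes was -0.44, the lowest of the role groups, and it counts elavl3 with each of its probes.

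Of the id genes, id4 read 11.63, 12.00 and 12.35 in wild type and 11.28, 11.53 and 10.54 in the mutants. The groups did not overlap, and mutant array 3 stood below its group. The difference was -0.88 (SE 0.29, adjusted p = 0.132), and -0.59 without that array. id1 read 11.74, 11.48 and 9.53 against 11.20, 11.19 and 11.13. Wild-type array 3 was far below all the others, so that the difference of 0.26 (SE 0.52, adjusted p = 0.845) turned to -0.43 without it (adjusted p = 0.204). The spots of id1 were uneven, with a pixel SD of 0.718 to 0.902 times the mean against at most 0.605 for any other tested member. id3 had equal means of 11.84.

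None of the 14 sox probes passed. Where 21.0% of all probes had an unadjusted p under 0.05, 1 sox probe did. It was sox9b, an SoxE gene that acts in cartilage and in glia, which read 9.46, 9.68 and 9.91 in wild type and 9.10, 9.08 and 8.83 in the mutants. The mutant arrays were all below wild type (-0.68, SE 0.16, adjusted p = 0.0567). It passed under 3 of the 9 other ways and without wild-type array 1 (-0.79, adjusted p = 0.0473), and reached an adjusted p of 0.148 with another array left out. Its paralog sox9a read 6.61, 6.67 and 6.57 against 6.49, 6.64 and 6.79, faint and overlapping (0.02, SE 0.13).

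Among the SoxB genes sox2, which keeps neural cells as progenitors, read 11.80, 11.62 and 12.30 in wild type and 10.74, 11.16 and 11.87 in the mutants. The groups overlapped through mutant array 3. The difference was -0.65 (SE 0.30, adjusted p = 0.278), -0.96 without mutant array 3 and -0.39 without mutant array 1. sox21a, a repressor that opposes the SoxB1 genes, read 7.87, 8.19 and 8.45 against 8.09, 9.36 and 8.52, with mutant array 2 alone well above the rest (0.49, SE 0.32, adjusted p = 0.45), and 0.14 without that array. sox3 had means of 13.64 in both groups and an interval of -0.56 to 0.57, and sox19a differed by -0.01 (SE 0.23).

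The probes of sox19b, known as a maternal factor of the zebrafish embryo, both gave differences near 0. Probe AJ404687 read 6.71, 6.49 and 6.69 in wild type and 6.59, 6.78 and 6.61 in the mutants (0.03, SE 0.13). Probe AW059068 read 7.49, 7.24 and 7.37 against 7.18, 7.51 and 7.38 (-0.01, SE 0.14). Both overlapped between groups.

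The SoxC genes, which act in young neurons, gave differences near 0 from bright probes. sox11b read 14.27, 14.00 and 13.98 in wild type and 14.10, 13.84 and 14.23 in the mutants (-0.03, 95% interval -0.38 to 0.33). sox4a read 11.43, 11.60 and 11.37 against 11.62, 11.07 and 11.50 (-0.07, 95% interval -0.47 to 0.32). The groups mixed at both genes.

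No probe of the other Sox classes passed. The SoxD gene sox6 read 7.66, 7.35 and 7.68 in wild type and 7.29, 7.67 and 7.79 in the mutants (0.02, SE 0.17). The SoxF gene sox17, which acts in endoderm and blood vessels, read 7.76, 8.10 and 7.54 against 7.56, 7.69 and 8.12 (-0.01, SE 0.20). sox32, the endoderm factor of the zebrafish embryo, read 6.24, 6.44 and 6.53 against 6.63, 6.41 and 6.38 (0.07, SE 0.14), and was above the blanks on 2 of the 3 wild-type arrays. sox10, the factor of neural crest and its glia, read 6.37, 6.41 and 6.33 against 6.44, 6.35 and 6.28, also with 2 of the 3 wild-type arrays above the blanks. The median over the 14 sox probes was -0.01.

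Genes around these families were followed with lists. Of 70 other genes listed for the Notch pathway (mostly cutting enzymes, glycosyltransferases, ligases and cofactors), 22 were tested with 24 probes. None passed, with 15 above 0, 9 below and a median of 0.06. The smallest p belonged to a probe of the ligase gene dtx3 (-0.40, SE 0.11, adjusted p = 0.0924). The other dtx3 probe differed by -0.49 (adjusted p = 0.3). Next came dvl2, a Wnt signalling gene on the list (-0.51, adjusted p = 0.186), and the fucosyltransferase gene pofut1 (0.48, adjusted p = 0.19). Of 85 other neurogenic and neuronal genes, 34 were tested with 39 probes and none passed, with a median of 0.01. The replication clamp gene pcna (0.74, adjusted p = 0.0563), ebf2 (-0.43, adjusted p = 0.108) and vim (0.52, adjusted p = 0.109) had the smallest p. Of 43 partners and targets of Sox proteins, 24 were tested with 25 probes and none passed, with a median of 0.10, the smallest p being those of pou3f3b (0.55, adjusted p = 0.0573), foxa3 (0.61, adjusted p = 0.0709) and foxa1 (0.42, adjusted p = 0.128).

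Markers of several cell types moved with the groups in the same arrays. Genes listed for olfactory sensory neurons were readable in both groups. Of these cnga2, which encodes a subunit of their cyclic nucleotide-gated channel, had means of 12.92 and 11.73. The marker lists were drawn up with earlier results of these data known, so their counts describe the arrays and are no independent test. Of 27 genes listed for olfactory sensory neurons 10 were measured. All 10 were below 0 and 8 passed, with a median of -1.07: cnga2, cplx2a, gng13b, sypa, or42c4, or42d3, or42e1 and or70a2. Among the 10, cplx2a, sypa and sypb are synaptic genes that other neurons also use. The summed linear brightness of the 10 was 81779 to 97678 in wild type and 41717 to 51238 in the mutants, to which gng13b (-0.69) contributed most. The 9 probes for 7 genes of neuronal progenitors and young neurons, most of them members, were all below 0 (median -0.27), none passed, and their sum was 55579 to 58345 against 43319 to 48467. It was carried mostly by tubb5 and insm1b. Outside the members this list held gap43 (-0.00) and tubb5 (-0.27). Sustentacular and glial genes gave 5 of 7 probes above 0, a median of 0.33 and sums of 67730 to 68109 against 66036 to 69323, a sum that glulb, near the ceiling, dominates.

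All 7 genes listed for neutrophils were above 0 and 4 passed (lyz, mpx, cpa5 and alox5ap). The sums of the 7 were 6167 to 8306 in wild type and 13645 to 35422 in the mutants. All 8 genes listed for macrophages were above 0 and 5 passed (lgals9l1, spi1b, mpeg1.1, lcp1 and csf1ra). The sums of the 8 were 85950 to 96163 against 105976 to 121605, to which cd74a (0.01), near the ceiling, contributes most. A gene on either list, cpa5 among them, can also be active in other white blood cells. Of 6 red cell genes all were above 0 and cahz passed, with sums of 15743 to 21183 against 26577 to 67671. Of 5 T-cell genes 3 were below 0 and 2 above, with a median of -0.06. Of these zap70 (-2.06, limma's adjusted p = 0.0122) and trac (-1.10, adjusted p = 0.0129) fell. The genes runx3 (0.73, adjusted p = 0.105) and tox (0.56, adjusted p = 0.0523) did not pass, with all mutant arrays above wild type. The T-cell sums were 4588 to 5366 against 3714 to 3988, and by group means gata3 (-0.06) contributed most. The part of these shifts in the differences of her6, notch1a, atoh8 and neurod4 was not tested.

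No gene passed in the lists of basal and surface epithelium (median -0.07), motile cilia (-0.11), endothelium (0.10), matrix and fibroblasts (-0.38), cartilage and bone (-0.02), skeletal muscle (0.04), pigment cells (-0.04) or central neurons (-0.08). The matrix sum was 35874 to 39476 in wild type and 21208 to 32922 in the mutants. The endothelium sum was 1624 to 1886 against 1465 to 1561, with 2 of the 5 genes below 0 and 3 above. To that sum plvapb (-0.50, limma's adjusted p = 0.11) contributed most. The central neuron sum was 10597 to 16482 against 8518 to 10723, carried mostly by the synaptic genes snap25a, syt1a and snap25b, which other neurons also use. The receptor genes gria2a, gria2b and grin1a and both probes of gad1b had wild-type means of 6.39 to 6.97, near the floor. The probes of gad2 read higher, with wild-type means of 7.63 and 8.70 and differences of 0.69 and -0.27.

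The named genes most like each called probe across the 6 arrays were found by Pearson's r, as a description. For her6 they were mtcl3b (0.997), zgc:113436 (0.995), and dtx3, cd164 and slain2 (0.990 each). For the notch1a probe BI887861 they were fbxo5 (0.995), cenps (0.992), vwa1 (0.991), clec14a (0.989) and the neutrophil gene lyz (0.987). For atoh8 they were slc38a4 and cpamd8 (0.992 each), usp2a (0.979), and klf9 and zyg11 (0.977 each). For neurod4 they were dennd6b (0.993), tacc2, si:ch211-269c21.2 and otx1 (0.989 each) and meltf (0.988). With 6 arrays in separate groups, these values mostly reflect the difference between groups, and the genes share the same arrays and their normalisation.

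**Figure D5:**
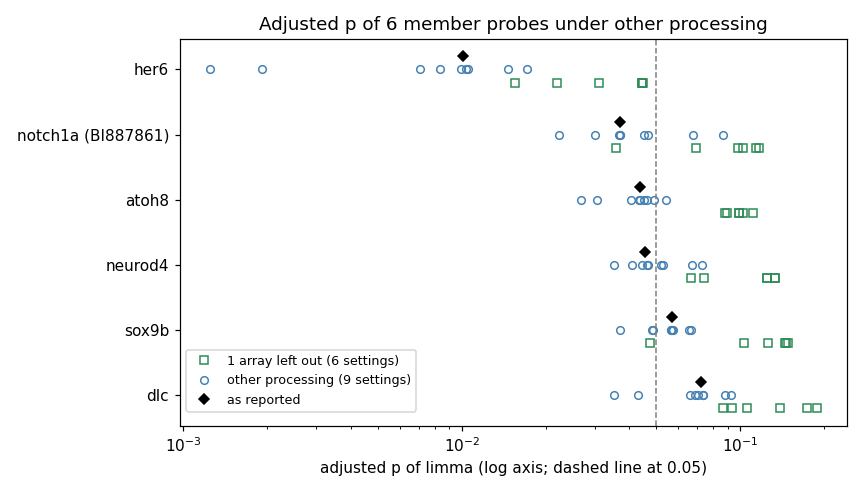
Adjusted p of limma (horizontal log axis) for the 4 called probes and for sox9b and dlc, as reported (diamonds), under 9 other ways of processing (circles) and with 1 array left out (6 squares). The dashed line is at 0.05. All values of her6 lie to its left, while those of the other probes fall on both sides.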

How the data were processed

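Olfactory rosette RNA of 3 wild-type and 3 mutant samples was read on 6 arrays of 19200 spots. The deposited scanner tables hold a raw intensity and a local background per spot, per the file headers, with no background subtraction or normalization recorded. The scanner software is not given in the sources used here. The values show the intensity to be summed over a spot (ceiling 6553500, 100 times the pixel ceiling of 65535), so it was divided by 100. The value table the authors deposited gives each probe as a ratio centred near 1, with column medians of 1.034, 1.001 and 0.955 for wild-type and 1.021, 0.990 and 0.993 for mutant arrays 1 to 3. Its log2 values had r = 0.910 to 0.961 with the centred scanner values of their own arrays and at most 0.398 with others, which sets its direction. Its scaling and background correction are unknown, and it was used only as an alternative.

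Background was corrected with normexp (offset 50) in limma 3.58.1 (R 4.3.3). The actin control spots were averaged, blank and bacterial control spots left out, and 15885 probes quantile normalized. In 1 print block of wild-type array 2 the spots lay 1 row off (r = 0.241 in place and 0.981 a row away, against at least 0.945 in place for all others of the 288 pairs of block and array). Its 400 spots were left out on all arrays, and 1 unreadable spot too. Probes brighter than the 95th percentile of the 2707 blank spots on all 3 arrays of a group were kept (15611).

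The groups were tested at each probe by lmFit and eBayes, 2-sided, with Benjamini-Hochberg adjustment over all 15611 probes and a threshold of 0.05. The fit was tested on simulated data. The number of arrays limits the precision. Symbols were taken from the platform annotation and updated by gene identifier to GRCz12tu. Of the tested probes 5694 have 1 symbol, 69 several and 9846 none, and 2 with a disagreeing accession, like those with none, are unnamed here. Array values are given for members that passed, the 2 smallest p of each role, genes with several probes and members at the blanks. Members, lists and the handling of the misread block were chosen with earlier results of these data known. Alternatives were other scaling, background, offset, filters, block handling, array weights, the authors' table and each array left out. Some proneural probes enter the counts and medians but are not reported here one by one.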

Additional observations from a re-analysis of the deposited data

How the results depend on the processing

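The count of probes passing limma's test over the whole array, 747 as reported, was 601 to 1020 under the 9 other ways of processing and 242 to 609 with 1 array left out (609, 293 and 296 without wild-type arrays 1 to 3, and 242, 495 and 298 without mutant arrays 1 to 3). The count of members, 4 as reported, was 2 with the misread print block kept and 3 to 5 under the 8 others. It was 1 to 2 with 1 array left out. The median over members, -0.031, was -0.022 under median scaling, -0.044 with a filter on all 6 arrays, -0.022 with array weights and -0.017 in the authors' deposited table. With 1 array left out it was -0.071 to -0.018. Median scaling moved the share of higher calls from 50.7% to 46.5%. Of 404 values for 27 named probes under 15 alternatives, no called value changed sign, 24 no longer passed and 6 newly passed. Uncalled values changed sign 28 times, in 11 probes, at most to a size of 0.43. No paired analysis was possible because the labels number only the second sample in both groups. Slide or scan date as a block was not run, since the file headers give neither. Probes near the blank spots limit what can be seen, since their differences depend on the background correction (0.48 to 0.99 for the called notch1a probe).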
